A study of Mus musculus with 16 samples.

Results

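Isolated enterocytes of the mouse small intestine were compared with samples labelled intestine, in wild-type (WT) mice of strain C57B6. The comparison used 8 of the 16 libraries of the series: 4 of primary enterocytes from the WT mice of an experiment on Mfge8, and 4 of RNA from small intestinal tissue from the WT mice of an experiment on Cd36. These 8 were chosen by genotype and sample type alone. The labels name no deletion and no treatment for any of them. Enterocyte RNA was purified with the RNeasy Plus Micro kit and intestinal RNA with the RNeasy Lipid Tissue Mini kit, so sample type, experiment and kit differed together and cannot be told apart. The labels do not say whether libraries of 1 group came from separate animals, how enterocytes were released, or which stretch of intestine was taken.

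Each library was a forward 3' tag library, in which a read marks the polyadenylated end of a transcript, and was read from a single end. Levels are CPM, the reads of a gene scaled to the library's own sum. The 4 enterocyte libraries held 1618369 to 2459812 reads and the 4 intestine libraries 850297 to 923158. The intestine libraries differed from each other by about the sampling noise, with chi-square per degree of freedom 0.987 to 1.08 over the 6 pairs. The chi-square p-values were 3.13e-07 to 0.781, under 0.05 in 3 pairs. In the alternative tests the 4 intestine libraries were therefore counted as 1 sample. The comparison of levels below still uses each of the 4, although they may not be independent. The enterocyte libraries differed more, with 6.26 to 16.9 per degree of freedom. Enterocyte library 4 stood apart in several genes that are given below with the values of each library. Enterocyte library 3 was lowest in antimicrobial genes.

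The small intestinal epithelium is a single layer that renews itself from stem cells at the base of crypts. Their daughters divide, leave the crypt and become absorptive enterocytes, mucus-secreting goblet cells, hormone-secreting enteroendocrine cells, chemosensory tuft cells or, at the crypt base, antimicrobial Paneth cells. Absorptive cells carry digestive enzymes and transporters on a brush border, pack dietary fat into chylomicrons, and can display MHC class II when interferon gamma reaches them. Lymphocytes lie between the epithelial cells. Muscle, connective tissue, vessels and nerves surround the layer in the whole organ.

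The label of the intestine samples was checked against markers of those surrounding tissues. Of 18 core markers of smooth muscle, fibroblasts, endothelium, neurons and glia, 16 stayed under 5 CPM in all 4 intestine libraries and 7 had no read in any of them. In the enterocytes 17 of the 18 stayed under 5 CPM and 8 had no read. Summed over the 18 genes the level was 28.9 to 43.5 CPM in intestine (125 reads in all) and 5.28 to 10.3 CPM in enterocytes (61 reads). Myh11 and Cnn1, proteins of the smooth muscle contractile machinery, and Cdh5, the cadherin of endothelial junctions, were at 0 in all 8 libraries. Dcn, a proteoglycan made by fibroblasts, was the highest of the 18 in intestine, at 17.3, 22, 30.6 and 19.7 CPM in libraries 1 to 4 against 0, 1.14, 0 and 0 CPM in enterocyte libraries 1 to 4. None of 28 extracellular matrix genes reached the level needed for comparison, with sums of 20.8 to 24.9 CPM in intestine and 3.71 to 13.1 CPM in enterocytes. By these core markers and matrix genes, the libraries labelled intestine thus held little measured RNA of muscle, stroma, vessels or nerves. The full lists of such tissues, 148 genes with the 18 among them, had higher sums that overlapped. These were 2707 to 2888 CPM in intestine and 2483 to 3252 CPM in enterocytes. Of the 148, 122 stayed under 5 CPM in every intestine library and 128 in every enterocyte library. Pan-epithelial genes were abundant in both sample types, with sums of 9259 to 11658 CPM in enterocytes and 15523 to 16194 CPM in intestine. Mylk, Tpm1, Gsn and Fbln1, on the lists of muscle or fibroblast genes, were at 100 CPM or more in the enterocytes, where the defining markers of those cells were near 0.

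**Figure D1:**
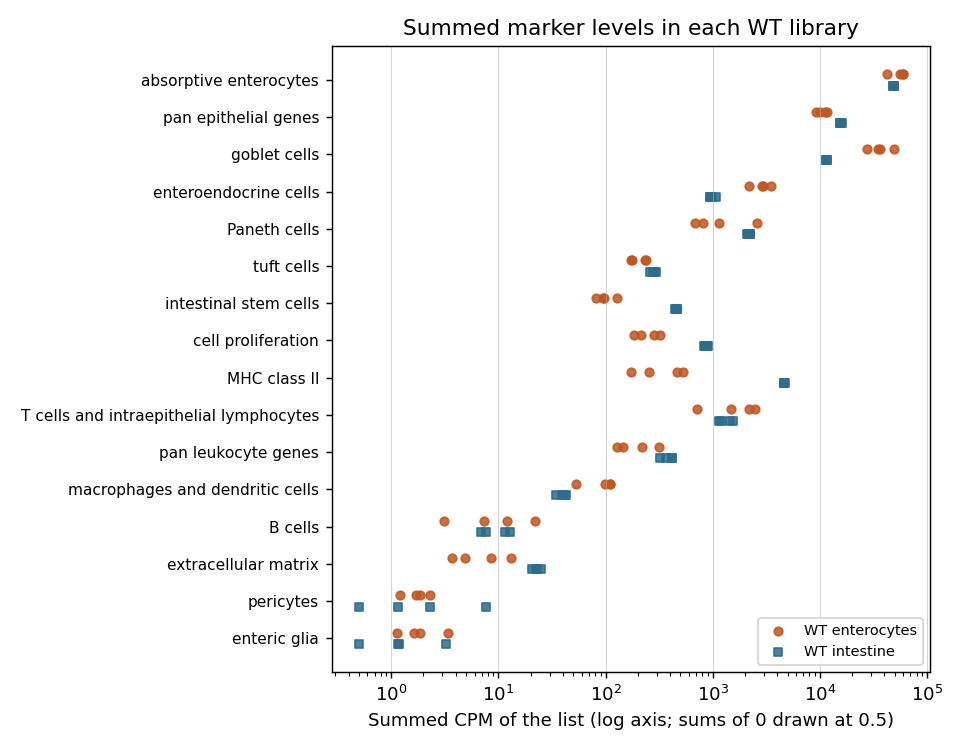
Summed CPM (log axis) of 16 marker lists in each of the 8 WT libraries, with circles for enterocytes and squares for intestine, and sums of 0 drawn at 0.5. MHC class II, stem cell and proliferation sums were lower in all 4 enterocyte libraries, goblet and enteroendocrine sums were higher, and sums of matrix, pericyte and glial genes were low in both sample types. The lists of smooth muscle, fibroblasts, endothelium and mesothelium are not drawn.

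Of 24420 features, 9122 reached 5 CPM in at least 4 of the 8 libraries and were compared. A difference is the mean log2(CPM + 1) of the 4 enterocyte libraries minus that of the 4 intestine libraries, a scale that understates the change of low genes. A gene was called when the difference was at least 1 in size, which is 2-fold, and the 4 libraries of a sample type all lay above the 4 of the other. The tables of the experiments were normalised separately, so the calls carry no p-value. With this rule 1114 genes were higher in enterocytes, 12.2% of those compared, and 3100 were lower, 34%. Without the 2-fold limit, the sample types did not overlap for 65.4% of the compared genes, 1736 higher and 4234 lower. The median difference over all compared genes was -0.57, so a list is read against these shares and that median. Other scalings moved the median upwards by 0.08 to 1.01, and the higher genes then made up 29.7% to 73.2% of all calls instead of 26.4%. TMM scaling, which aligns the bulk of the genes, gave 1897 higher and 1864 lower genes with a median of -0.04. The deposited values without rescaling gave 2978 higher and 1089 lower genes. Counts of a list under these scalings are read beside these. The median of a list relative to that of all genes is given below because these scalings leave it nearly as it was. Every SD given for a list is that of this relative median over the 4 enterocyte libraries. A gene under 5 CPM in every library of a sample type passed the filter only through the other, where it is high, and had to differ, so for 5 of the lists counts are also given without such members. In bulk RNA, fewer cells of a type and less RNA per cell cannot be told apart.

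**Figure D2:**
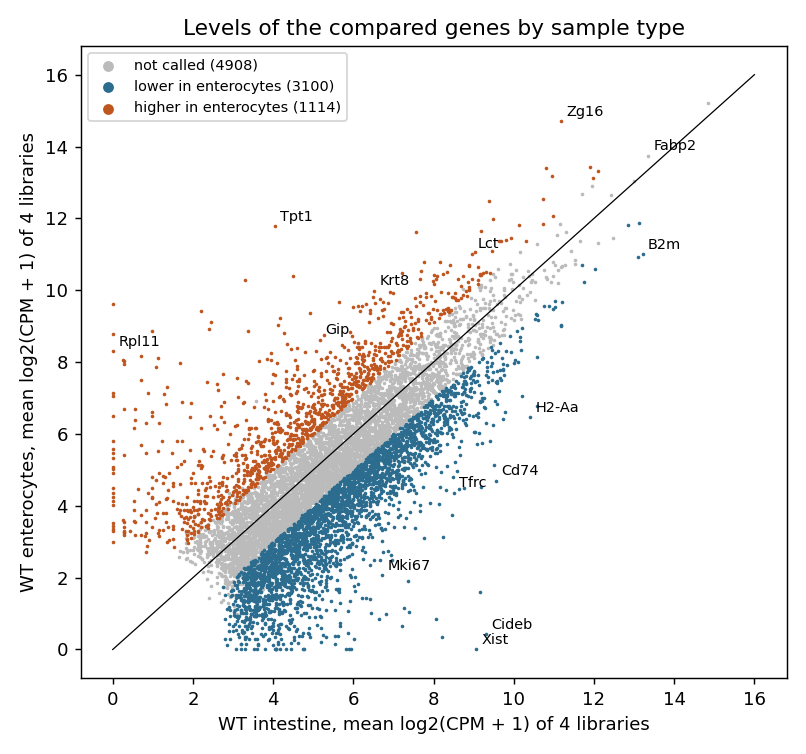
Mean log2(CPM + 1) of the 4 enterocyte libraries against that of the 4 intestine libraries for the 9122 compared genes, with the line of equal level. The 1114 genes called higher in enterocytes lie above the line and the 3100 called lower lie below it.

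MHC class II genes had the lowest median of any list with at least 7 compared members. These genes make and load the receptor that shows peptides to CD4+ T cells. All 7 compared members were lower in enterocytes, where 34% of all compared genes were lower, and 6 of the 7 passed the filter in both sample types. The list's median difference was -3.79, or -3.23 relative to all genes with an SD of 0.47 over the 4 enterocyte libraries. The summed level was 174 to 525 CPM in enterocytes against 4585 to 4722 CPM in intestine. All 7 stayed lower under each of the 5 other scalings and after the length trend described below was removed. H2-Ab1, a beta chain of the receptor, was at 57.5, 157, 95.9 and 166 CPM in enterocyte libraries 1 to 4 and at 1524, 1503, 1551 and 1551 CPM in intestine libraries 1 to 4. Its partner H2-Aa, the alpha chain, was at 48.2, 137, 67.1 and 134 CPM and 1326, 1432, 1297 and 1345 CPM in the same order. Enterocyte libraries 2 and 4 were the highest of the 4 for both chains, and still far under every intestine library. The invariant chain Cd74, which holds the receptor's groove until a peptide is loaded, had the largest difference of the list, -4.86, from 10.5, 44, 17.5 and 46.7 CPM in enterocytes and 715 to 807 CPM in intestine. H2-DMa and H2-DMb1 form the exchange factor that loads peptides. H2-DMa was at 10.5, 10.3, 3.25 and 8.54 CPM against 199 to 228 CPM, a difference of -4.67, and H2-DMb1 at 16.7, 42.8, 22.4 and 80.3 CPM against 164 to 190.0 CPM, a difference of -2.33. Ciita, the coactivator that switches the whole set on, was at 1.24, 3.43, 3.25 and 3.98 CPM in enterocytes and 30.6 to 45.5 CPM in intestine. No library of either type overlapped the other for any of these genes, as for 65.4% of all compared genes. For Ciita, under 5 CPM in every enterocyte library, the filter had fixed this in advance.

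Class II promoters carry a conserved box, the Y box, whose core letters are ATTGG or, on the other strand, CCAAT. Of 9122 compared genes, 7055 had a RefSeq promoter window of 300 bases (250 before and 50 after the annotated start, assembly GRCm38.p6), and 38.7% of these windows held the core on either strand. It was found in 3 of the 4 class II genes with a window. They are shown because their genes fell into the same call, with the core in capitals, for H2-Aa (chr17:34287774-34288073, minus strand), H2-Eb1 (chr17:34305617-34305916, plus strand) and H2-DMb1 (chr17:34152941-34153240, plus strand), each read 5′ to 3′ along the gene. The core also stood in 17 of 19 windows of proliferation genes and in 8 of 11 of class I and antigen processing genes. Among all genes called higher 36.5% of windows held it, and among those called lower 37.7%. A match describes the letters and is not evidence of binding.
H2-Aa: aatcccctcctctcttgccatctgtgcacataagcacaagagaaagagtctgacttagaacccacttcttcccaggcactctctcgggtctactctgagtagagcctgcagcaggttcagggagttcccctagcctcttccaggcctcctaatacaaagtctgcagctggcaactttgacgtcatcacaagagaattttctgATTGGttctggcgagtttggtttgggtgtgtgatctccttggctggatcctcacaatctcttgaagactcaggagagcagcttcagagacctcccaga
H2-Eb1: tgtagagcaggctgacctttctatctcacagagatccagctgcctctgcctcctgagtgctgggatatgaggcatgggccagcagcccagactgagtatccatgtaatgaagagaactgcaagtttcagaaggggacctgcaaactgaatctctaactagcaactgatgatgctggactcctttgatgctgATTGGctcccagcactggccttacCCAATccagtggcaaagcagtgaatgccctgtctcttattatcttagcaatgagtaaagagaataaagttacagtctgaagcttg
H2-DMb1: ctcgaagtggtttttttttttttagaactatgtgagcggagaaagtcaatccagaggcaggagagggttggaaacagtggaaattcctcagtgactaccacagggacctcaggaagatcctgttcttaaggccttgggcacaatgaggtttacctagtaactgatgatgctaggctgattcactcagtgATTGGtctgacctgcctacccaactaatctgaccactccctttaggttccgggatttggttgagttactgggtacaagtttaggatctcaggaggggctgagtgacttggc

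Genes induced by interferons were mixed: Igtp, Irgm1 and Gbp2 were among those lower, and Isg15 and Irf7 among those higher. Of 22 compared members of the interferon list, 14 were lower and 4 higher, with a median of -1.42 (SD 0.14 over enterocyte libraries), or -0.85 relative to all genes. Of these 22, 3 passed the filter only through the intestine and 1 only through the enterocytes, and of the other 18, 11 were lower and 3 higher. With the length trend removed 10 of the 22 were lower and 4 higher, beside 18.7% and 15.5% of all genes. With the deposited values taken without rescaling 6 were lower and 5 higher. Igtp, a GTPase that guards cells against intracellular parasites, was at 17.3, 17.1, 26.8 and 22.2 CPM in enterocyte libraries 1 to 4 and at 330.4, 289, 328 and 322 CPM in intestine libraries 1 to 4. Irgm1, of the same family, was at 0, 5.14, 2.85 and 0.569 CPM and 52, 46.2, 49.4 and 52.1 CPM. Gbp2, a guanylate-binding protein, was at 0, 1.71, 1.63 and 3.42 CPM and 29.2, 31.2, 34.1 and 23.2 CPM. For all 3 GTPases every enterocyte library lay under every intestine library. For Gbp2, under 5 CPM in every enterocyte library, the filter had fixed this in advance. In the other direction, Isg15, a ubiquitin-like protein, was at 138, 198, 187 and 218 CPM in enterocytes and 19.5, 13.9, 29.4 and 16.2 CPM in intestine, a difference of 3.20. Irf7, the factor that amplifies type I interferon, was at 115, 139.9, 112 and 137 CPM against 43.9 to 60.7 CPM, and Ifi27 and Oas1a were also higher, by 1.38 and 3.06. Of the 3' end of Oas1a, a sensor of viral RNA, 43.4% was shared with other genes, so its level is uncertain.

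The letters GAAA, any 2 bases and GAAA again, an element bound by interferon-activated factors, were searched on both strands of the same windows. Neither motif contains the other. The element stood in 3.13% of all windows, 221 of 7055. Of 15 interferon-list members with a window, 10 held it: 6 called lower, 2 called higher (Isg15 and Oas1a) and 2 not called. The element was thus present on both sides of the comparison. Among all genes called higher 3.16% held it, and among those called lower 3.43%. The windows of the 3 GTPases described above are printed with the element in capitals, for Igtp (chr11:58199306-58199605, plus strand), Irgm1 (chr11:48871371-48871670, minus strand, 2 overlapping matches) and Gbp2 (chr3:142620413-142620712, plus strand, where the match reads on the other strand).
Igtp: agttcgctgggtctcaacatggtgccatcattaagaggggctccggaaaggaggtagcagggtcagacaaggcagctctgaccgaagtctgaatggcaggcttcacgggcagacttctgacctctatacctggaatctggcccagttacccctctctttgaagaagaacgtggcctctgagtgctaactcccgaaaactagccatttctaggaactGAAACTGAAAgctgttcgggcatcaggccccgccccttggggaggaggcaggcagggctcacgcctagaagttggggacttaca
Irgm1: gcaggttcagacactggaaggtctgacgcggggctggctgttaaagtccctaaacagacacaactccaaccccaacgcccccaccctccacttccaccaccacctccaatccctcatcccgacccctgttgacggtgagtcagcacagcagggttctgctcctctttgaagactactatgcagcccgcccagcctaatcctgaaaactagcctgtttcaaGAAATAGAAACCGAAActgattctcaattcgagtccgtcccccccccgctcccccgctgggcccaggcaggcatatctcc
Gbp2: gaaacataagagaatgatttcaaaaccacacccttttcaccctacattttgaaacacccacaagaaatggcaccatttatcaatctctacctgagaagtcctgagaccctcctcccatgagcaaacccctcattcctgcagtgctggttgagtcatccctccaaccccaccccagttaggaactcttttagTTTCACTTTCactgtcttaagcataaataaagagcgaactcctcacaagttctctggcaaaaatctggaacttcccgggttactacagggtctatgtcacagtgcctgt

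MHC class I, which every nucleated cell uses to show its own peptides, held calls in both directions, mostly lower among members with a 3' end of their own. Of 14 compared members of the class I and antigen processing list, 6 were lower and 4 higher, with a median of -0.41. Of the 9 with a 3' end of their own, 6 were lower and 1 higher, with a median of -1.09. Among all genes with such an end 33.9% were lower and 10.5% higher. B2m, the light chain of every class I molecule and the third most abundant feature in intestine, was at 1866, 2259, 2027 and 2069 CPM in enterocyte libraries 1 to 4 and at 9405, 9563, 9380.2 and 9613 CPM in intestine libraries 1 to 4, a difference of -2.21. H2-K1, a classical heavy chain, went the other way, at 2556, 2527, 2610.0 and 2873 CPM against 1230.5 to 1290.1 CPM. The light chain and this heavy chain thus differed in opposite directions without any overlap, which was absent for 65.4% of all compared genes. Tap1, which pumps peptides into the endoplasmic reticulum, and Nlrc5, the class I coactivator related to Ciita, were lower, with differences of -2.57 and -3.32. H2-D1 was not called, at 827, 843, 870.0 and 906 CPM against 1105 to 1221 CPM. H2-T23 was listed at 0 in all 4 intestine libraries, and 29.9% of its 3' end was shared with other genes, as was 23.1% of that of H2-Q1.

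**Figure D3:**
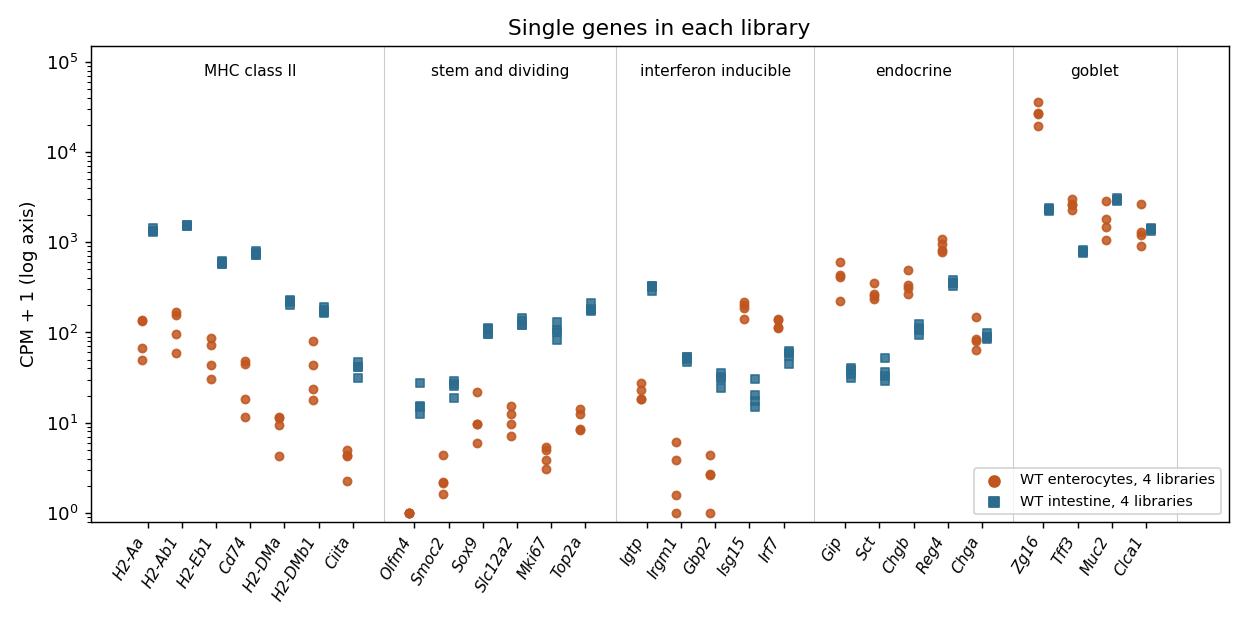
CPM + 1 (log axis) of 27 genes in each library, circles for the 4 enterocyte and squares for the 4 intestine libraries, in 5 groups. The 7 MHC class II genes, the stem and dividing genes and 3 of 5 interferon-inducible genes lie lower in every enterocyte library, while Isg15, Irf7, Gip, Sct, Chgb, Reg4, Zg16 and Tff3 lie higher. Among the lower genes Ciita, Olfm4, Mki67 and Gbp2 were under 5 CPM in every enterocyte library, so the filter had fixed their separation.

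Markers of the crypt base and of dividing cells were lower in the isolated cells. Of 16 intestinal stem cell genes 10 were compared, of which 8 were lower and none higher. Of these 10, 3 passed the filter only through the intestine, and of the other 7, 5 were lower. The median was -2.30 (SD 0.37), or -1.73 relative to all genes, which became -1.01 without a filter and -0.71 with one at 20 CPM, and the summed list stood at 81.3 to 127 CPM in enterocytes and 447 to 468 CPM in intestine. Under TMM, median-ratio or epithelial scaling 5 were lower, as with the length trend removed. Olfm4, a secreted glycoprotein of crypt base columnar cells, was listed at 0 in all 4 enterocyte libraries, where 3 reads over the 4 libraries would be 0.395 CPM, and stood at 14.1, 11.6, 14.1 and 26.6 CPM in intestine libraries 1 to 4. Sox9, a transcription factor of stem, Paneth and some endocrine cells, was at 8.65, 8.56, 4.88 and 21.1 CPM in enterocytes and 95.3, 94.7, 108 and 112 CPM in intestine. Slc12a2, the chloride cotransporter of crypt cells, was at 6.18, 8.56, 11.4 and 14.2 CPM and 119, 144, 134 and 120.5 CPM. Sox9 and Slc12a2 separated the sample types by a wide margin, with enterocyte library 4 the highest of the enterocytes for each. Olfm4 passed the filter only through the intestine, so its separation was fixed in advance. Lgr5 and Ascl2, which define the crypt stem cell, did not reach the level for comparison, at means of 0.387 and 0 CPM in enterocytes and 4.01 and 6.61 CPM in intestine.

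Of 23 compared proliferation genes, 13 were lower and 1 was higher, with a median of -1.61 (SD 0.19), or -1.04 relative to all genes. Of these, 5 passed the filter only through the intestine and 1 only through the enterocytes, and of the other 17, 8 were lower. The summed level was 183 to 323 CPM in enterocytes and 839 to 909 CPM in intestine. Mki67, the Ki-67 antigen of cycling cells, was at 4.33, 4, 2.03 and 2.85 CPM in enterocyte libraries 1 to 4 and at 82.3, 101, 106 and 131 CPM in intestine libraries 1 to 4. Top2a, the topoisomerase that untangles replicated DNA, was at 7.41, 13.1, 7.32 and 11.4 CPM and 211, 172, 179.9 and 176 CPM. For Top2a no library of the isolated cells was near the level of any intestine library. For Mki67, under 5 CPM in every enterocyte library, the filter had fixed the separation in advance. Mcm5, Ccna2 and Aurkb, of the replicative helicase, the cyclins and the mitotic kinases, were lower, with differences of -3.24, -3.44 and -3.17. Pcna, the sliding clamp of DNA polymerase, was the exception, at 13.6, 26.8, 11.4 and 18.2 CPM in enterocytes and 2.17, 4.62, 3.53 and 2.32 CPM in intestine, higher by 2.12. Pcna, under 5 CPM in every intestine library, passed the filter only through the enterocytes. The 9 further members were not called, Tubb5 and Hmgb2 among them with differences of -0.13 and 0.26.

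Paneth cell genes varied among the enterocyte libraries, and most of them shared part of their 3' end with other genes. Of 15 compared members 7 were lower, beside 34% of all genes, and 0 higher, with a median of -1.44. Relative to all genes the list's median was -0.87, within its SD of 1.05 over the enterocyte libraries. The sums were 1144, 2606, 813 and 679 CPM in enterocyte libraries 1 to 4 and 2100 to 2241 CPM in intestine, so library 2 lay above every intestine library. Only 4 members had a 3' end of their own, with a median of -0.05. Among these, Itln1, a lectin, was not called at 350.4, 750.2, 236 and 214 CPM against 258 to 325 CPM, and Mmp7, the protease that activates defensins, was not called either. Pla2g2a, a secreted phospholipase, was lower, at 1.24, 1.14, 0 and 0 CPM against 18.5 to 31.8 CPM. Under 5 CPM in every enterocyte library, Pla2g2a passed the filter only through the intestine, so its separation was fixed in advance. Lyz1, the Paneth lysozyme, did not separate the sample types, at 269, 723, 246 and 169 CPM in enterocytes and 298 to 308 CPM in intestine.

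The summed goblet cell list was higher in enterocytes, which rested on Zg16. It stood at 34587, 36102, 27599 and 49217 CPM in enterocyte libraries 1 to 4 and at 11444 to 11643 CPM in intestine. In the enterocytes most of this was Zg16, a lectin that keeps bacteria from the epithelium. Zg16 was at 26378, 27101, 19569 and 35999 CPM in enterocytes and 2335, 2367, 2213 and 2299 CPM in intestine, the second most abundant feature of the isolated cells with a difference of 3.53. Without Zg16 the sum was 8209, 9001, 8031 and 13218 CPM in enterocyte libraries 1 to 4 and 9205 to 9344 CPM in intestine, and library 4 alone lay above the intestine. Tff3, a trefoil peptide that seals mucus, was at 2617, 2671, 2273 and 2995 CPM against 766 to 821 CPM. Muc2, the gel-forming mucin itself, was not called and lay lower in each library, at 1463, 1787, 1064 and 2882 CPM against 2886 to 3098 CPM. Members of the list therefore did not move together. Of 16 compared, 4 were higher and 3 lower with a median of -0.17, or 0.39 relative to all genes and -0.05 after the length trend was removed. Agr2, which folds mucin in the endoplasmic reticulum, and Atoh1, the factor that starts the secretory fate, were lower, with differences of -1.33 and -1.09. The lower members Agr2, Atoh1 and Sytl2 were no longer called under TMM scaling, where 5 were higher and none lower.

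Hormone transcripts of enteroendocrine cells were higher in enterocytes. Of 18 compared members 11 were higher and 2 lower, beside 12.2% and 34% of all genes, and the median was 1.25 (SD 0.27), or 1.81 relative to all genes. The sums were 2166 to 3479 CPM in enterocytes and 949 to 1064 CPM in intestine. Gip, the incretin of K cells, was at 434, 222, 601 and 412 CPM in enterocyte libraries 1 to 4 and at 30.3, 39.3, 37.6 and 33.6 CPM in intestine libraries 1 to 4. Sct, which encodes secretin, was at 266, 236, 249.6 and 355 CPM and 28.2, 50.8, 31.8 and 35.9 CPM. Reg4, a lectin of endocrine and secretory cells, was the most abundant member, at 1094, 776, 819 and 944 CPM and 326 to 383 CPM. The 3 transcripts, with Cck (difference 1.63), Nts (1.46) and Chgb (1.67), did not overlap between sample types, as 65.4% of all compared genes did not. Chga, a granule protein of most endocrine cells, did not separate the sample types, at 63.6, 84.5, 79.3 and 148 CPM against 84.5 to 96.4 CPM. Gcg, which encodes glucagon-like peptides, and Tac1, the substance P precursor, were lower, at 13.6, 12, 2.85 and 16.5 CPM against 29 to 33.5 CPM and at 3.09, 3.43, 4.88 and 11.4 CPM against 19.6 to 27.1 CPM. Hormones of the upper intestine (Gip, Sct, Cck) were thus higher while Gcg was lower, and Pyy, a hormone of the lower intestine, was higher by 1.21. Which stretch of intestine went into each sample is not stated in the labels. Calls of segment markers were mixed, with 2 of 12 proximal genes higher and 3 lower, and 2 of 11 ileal genes higher and 2 lower. Their medians relative to all genes were 0.75 and 0.01. Proximal sums were 14453 to 23843 CPM in enterocytes and 9541 to 9880 CPM in intestine, while ileal sums overlapped. Of 5 compared colonocyte genes 3 were lower, with sums of 88.2 to 121 CPM in enterocytes and 740 to 828 CPM in intestine. The part of region in the comparison was not tested.

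Tuft cell genes were lower for 6 of 10 compared members and higher for none, with a median of -1.10, or -0.53 relative to all genes, and sums of 171 to 238 CPM against 259 to 297 CPM. After the length trend was removed 3 were lower. With TMM scaling 3 were lower and 1 higher, and without rescaling 2 were lower and 2 higher. Dclk1, the kinase that marks tuft cells, was at 8.03, 10.3, 19.1 and 22.2 CPM in enterocytes and 45.1 to 47 CPM in intestine. Avil and Ptgs1, an actin-binding protein and a prostaglandin synthase, were lower, with differences of -1.96 and -1.88, while Cd24a was not called, with a difference of 0.47.

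The calls of absorptive genes moved with the scaling, as those of all genes did. Of 22 absorptive enterocyte genes 4 were higher and 5 lower, but 7 and 3 with TMM scaling and 12 and 2 without rescaling. Over all 9122 genes the counts were 1114 and 3100, 1897 and 1864, and 2978 and 1089 in the same order. The list's median relative to all genes was 0.62 with TMM scaling and 0.64 without rescaling. With CPM the median was 0.03 (SD 0.38), or 0.60 relative to all genes, and the sums overlapped at 41920 to 59618 CPM in enterocytes and 48522 to 49603 CPM in intestine. Fabp2, the intestinal fatty acid binding protein and the most abundant member, was at 13681, 16503, 14248 and 11077 CPM in enterocyte libraries 1 to 4 and at 10346 to 10652 CPM in intestine. It was not called. Fabp1, a second fatty acid binding protein, was at 14455, 9879, 11919 and 8422 CPM against 3718 to 3908 CPM, and Lct, the lactase of the brush border, at 2682, 1925, 2925 and 1224 CPM against 483 to 512 CPM. Both were higher in all 4 enterocyte libraries, and library 4 was the lowest of them in each. Anpep, aminopeptidase N, was at 306, 360.3, 572 and 1051 CPM in enterocytes and 2286 to 2344 CPM in intestine, and Slc2a2, the basolateral glucose transporter, at 292, 225, 319 and 191 CPM against 990.3 to 1079 CPM. Sis, the sucrase-isomaltase, was lower, with a difference of -1.42, and of -0.34 once the length trend was removed. Slc5a1, the sodium-glucose cotransporter, differed by 0.22 and Alpi, the brush border phosphatase, by -0.06. The pan-epithelial list had 4 of 18 members lower and 1 higher with a median of -0.60, which is near that of all genes. Within it Krt8, a keratin of simple epithelia, was at 981, 1037, 1121 and 928 CPM against 85.9 to 97.1 CPM, higher by 3.47. Krt19, another keratin, and Lgals4, an epithelial galectin, were lower, with differences of -2.18 and -3.25.

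Of 18 compared genes of triglyceride synthesis and lipid droplets, which include coat proteins and lipases, 7 were higher and 4 lower, with a median of 0.80 (SD 0.34), or 1.36 relative to all genes. With TMM scaling 10 were higher and 2 lower. Dgat1, which adds the last fatty acid, was at 2461, 2226, 2266 and 1736 CPM in enterocyte libraries 1 to 4 and at 552, 496, 541 and 505 CPM in intestine libraries 1 to 4. Mogat2, which acts just before it, was at 546, 375, 389 and 265 CPM against 155 to 185 CPM. Agpat3 and Lpin3, of the glycerol phosphate route, were higher by 1.85 and 1.19, while Agpat9 and Lpin2 of the same route were lower, with differences of -1.77 and -1.35. Of 11 chylomicron genes, which export the fat, 2 were higher and 4 lower, but 4 and 3 with TMM scaling and 5 and 1 without rescaling, and their median was 0.52 relative to all genes. Apob, the structural protein of the chylomicron, was at 423, 565, 658 and 487 CPM in enterocytes against 2214 to 2372 CPM, a difference of -2.14. Its transcript is long, and the difference was -0.66 after the length trend was removed, which is not a call. Apoa1, the main protein of high density lipoprotein, was lower, with a difference of -1.03, but of 0.02 when the deposited values were not rescaled. Sar1b, the GTPase that buds the chylomicron carrier, was lower, with a difference of -1.81, and Apoc3 was higher by 1.17. Mttp, the lipid transfer protein, was not called (-0.46). Cideb, a lipid droplet protein, was listed at 0, 2.28, 0 and 0 CPM in enterocytes and 569.6 to 676 CPM in intestine. Under 5 CPM in every enterocyte library, Cideb passed the filter only through the intestine and had to differ. Its whole 3' end is overlapped by another gene's exon on the opposite strand, and the strand setting of the counting is not given in the sources used here. Oxidation of fatty acids was higher for 5 of 17 mitochondrial members with 1 lower, the entry enzyme Cpt1a (-2.03), and for 5 of 18 peroxisomal members with none lower. Of members with a 3' end of their own, 4 of 12 mitochondrial ones were higher and 1 lower. Of such peroxisomal members 2 of 13 were higher and 0 lower. The medians of these members were 0.54 and -0.01, beside -0.58 for all genes with such an end. Hadh, of mitochondrial beta-oxidation, was at 2472, 2229, 2166 and 1939 CPM against 699 to 727 CPM, and Cat, the peroxisomal catalase, at 1009, 837, 994 and 698 CPM against 175 to 191 CPM.

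Iron handling held large differences in both directions. Fth1, the heavy subunit of the iron store ferritin, was at 7504, 5085, 6198 and 4725 CPM in enterocyte libraries 1 to 4 and at 704, 709, 646 and 592 CPM in intestine libraries 1 to 4, higher by 3.13. Tfrc, the transferrin receptor, was at 26, 28, 13.4 and 14.8 CPM and 338, 363, 354 and 390.3 CPM, a difference of -4.14. Ireb2, which encodes an iron regulatory protein, was lower, with a difference of -1.19, and of -0.10 after the length trend was removed. The part of iron regulation in these differences was not tested. The 3' end of Fth1 was 13.7% shared and that of Ftl1, the light subunit (higher by 3.52), 75.4% shared with other genes. Of 24 compared xenobiotic genes 7 were higher and 3 lower, and of the 16 with a 3' end of their own 3 were higher and 2 lower. Cyp3a11, a drug-oxidising cytochrome, was at 1485, 1311, 1272 and 1054 CPM against 241 to 291 CPM, and Nr1i2, the receptor that induces it, was higher by 1.52. Abcb1a, a drug efflux pump, was lower, with a difference of -1.56, and of -0.77 after the length trend was removed.

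Structural genes of the brush border and of cell junctions had medians of -0.49 and -0.64, near that of all genes. Of 16 brush border members 1 was higher and 4 lower, and after the length trend was removed 5 were higher and 1 lower. Pls1, which bundles actin in microvilli, was at 3361, 3587, 4030.4 and 3771 CPM in enterocytes against 1588 to 1774 CPM, and Myo1a, the motor that ties the bundle to the membrane, at 1338, 1024, 1403 and 1082 CPM against 3340.2 to 3567 CPM. Of 22 junction members 4 were higher and 6 lower. Cldn2, the pore-forming claudin of crypts, was at 3.09, 7.42, 1.22 and 13.7 CPM against 68.2 to 78.8 CPM, and Cldn4, a sealing claudin, at 171, 349, 234 and 355 CPM against 37 to 58.5 CPM. These claudins separated the sample types in opposite directions, by -3.71 and 2.39.

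Antimicrobial and inflammatory genes of the epithelium were lower for 7 of 15 compared members and higher for 1, with a median of -1.0. Of all compared genes 34% were lower and 12.2% higher. Relative to all genes the list's median was -0.44, within its SD of 0.58 over the enterocyte libraries. The median was 0.05 with deposited values taken without rescaling, and -0.40 relative to all genes there. Reg3b, a bactericidal lectin, was at 3832, 5146, 1881 and 5361 CPM in enterocyte libraries 1 to 4 and at 9042, 8919.6, 8962 and 8878 CPM in intestine libraries 1 to 4. Dmbt1, a secreted receptor that clumps bacteria, was at 57.5, 62.2, 9.35 and 38.1 CPM and 725, 744, 726 and 731 CPM. Duox2, an oxidase that makes hydrogen peroxide, was at 1.24, 1.71, 2.03 and 6.26 CPM and 61.2 to 67.2 CPM. All 3 were lower in every enterocyte library, and library 3 was the lowest for Reg3b and Dmbt1. Il18, an epithelial cytokine, was the higher member, at 446, 306, 248 and 256 CPM against 121 to 135 CPM. Library 4 alone was high in several others: Nos2 stood at 5.56, 6.85, 7.32 and 93.4 CPM, Ccl20 at 9.89, 3.43, 5.28 and 59.2 CPM, and Ubd at 16.7, 65.7, 30.9 and 199 CPM in enterocyte libraries 1 to 4. In intestine they were at 15.1 to 31.4, 8.23 to 11.6 and 537 to 554 CPM. The same library held 5137 CPM of Fabp6, the ileal bile acid binding protein, against 22.9, 228 and 206 CPM in enterocyte libraries 1 to 3 and 298 to 318 CPM in intestine. It also held 8.54 CPM of Celf5, an RNA binding protein, against 192, 441 and 257 CPM in the other enterocyte libraries. Fabp6 and Celf5 had the largest SDs of log2(CPM + 1) among enterocyte libraries, 3.19 and 2.49, for genes of at least 50 CPM there.

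Transcripts of immune cells were present in both sample types. Of 10 pan-leukocyte genes 2 were lower, Ptprc (CD45, -2.36) and Cd48 (-2.13), and none was higher. The list median of -0.61 lay near that of all genes. Of 14 genes of T cells and intraepithelial lymphocytes 3 were lower, and the sums overlapped, at 1493, 2159, 718 and 2472 CPM in enterocytes and 1152 to 1544 CPM in intestine. Gzma, a granzyme of cytotoxic cells, was at 1071, 1475, 485 and 1546 CPM against 369 to 486 CPM and was not called because library 3 overlapped. Itgae, the integrin chain that holds these lymphocytes to E-cadherin, was lower, at 9.89, 19.4, 4.07 and 35.3 CPM against 48.5 to 60.2 CPM. Enterocyte libraries 2 and 4 were the highest and library 3 the lowest of the 4 in both genes. None of 10 B cell genes reached the level for comparison. Of 6 compared macrophage and dendritic cell genes 3 were higher, among them C1qa, a complement subunit, at 8.03, 14.3, 9.35 and 14.2 CPM against 0 to 1.08 CPM, and Tyrobp, a signalling adaptor, at 28.4, 24.6, 13.4 and 27.9 CPM against 3.53 to 7.58 CPM. Of the 6, 2 passed the filter only through the enterocytes, C1qa among them, and had to lie higher there. Of the other 4, 1 was higher and none lower. The part of antigen-presenting cells in the class II difference was not tested.

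Ribosomal protein genes had the highest median of all lists, and the median was smaller among members with a 3' end of their own. Of 34 compared members 25 were higher and none lower, with a median of 2.85 (SD 0.32), or 3.42 relative to all genes. Of these 34, 7 were under 5 CPM in every intestine library. Those 7 passed the filter only through the enterocytes and had to lie higher there. Only 8 of the 34 had a 3' end of their own, of which 5 were higher with a median of 1.84, beside 10.5% higher and 33.9% lower among all 7247 genes with such an end. Rps14 of the small subunit was at 1792, 1797, 1237 and 1251 CPM in enterocyte libraries 1 to 4 and at 200.4, 206, 215 and 205 CPM in intestine libraries 1 to 4, and shared no word of its end. Rpl11 of the large subunit was at 395, 399.7, 219 and 278 CPM in enterocytes and listed at 0 in all 4 intestine libraries, as were Nme2 and Atp5g1. Rpl4 went the other way and was not called, at 406, 462, 307 and 396 CPM against 452 to 483 CPM. Because cells cannot do without these proteins, an entry of 0 is read only as a listed value. Tpt1, a growth-related protein of most cells, was at 3913, 4064, 2569.7 and 3792 CPM against 11.8 to 21.7 CPM, the largest step of any gene over 1000 CPM in enterocytes.

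Genes of oxidative phosphorylation were higher for 19 of 32 members and lower for 1, with a median of 1.18 (SD 0.31), or 1.74 relative to all genes. The 22 members with an end of their own had a median of 1.04. Atp5b, the catalytic subunit of ATP synthase, was at 3138, 2457, 2806 and 2361 CPM in enterocyte libraries 1 to 4 and at 941, 925, 856 and 842 CPM in intestine libraries 1 to 4. Uqcrb, a subunit of complex III, was at 629, 638, 767 and 609.7 CPM against 24.7 to 40.4 CPM, and Ndufa1, of complex I, at 942, 734, 785 and 609.7 CPM against 52.9 to 85.5 CPM. Uqcrb and Ndufa1 had the largest differences of the list. Uqcrc1, Cyc1 and Ndufv1, of complexes I and III as well, were not called, with differences of -0.18, -0.23 and -0.44. Ndufs1, of complex I as well, was the lower member, at 85.3, 88.5, 95.9 and 72.9 CPM against 284 to 331 CPM. Heat shock genes were higher for 6 of 12 members and lower for none, with a median of 1.02 (SD 0.26). Hspa1a, the inducible HSP70, was at 38.9, 16.6, 8.94 and 52.4 CPM against 0 to 3.53 CPM, Hsp90aa1 at 58.1, 57.1, 71.6 and 104 CPM against 10.4 to 17.6 CPM, and Hspe1, a mitochondrial chaperonin, at 189.7, 132, 74.4 and 113 CPM against 11.6 to 22.3 CPM. Hspa1a, under 5 CPM in every intestine library, passed the filter only through the enterocytes and had to lie higher there. Hsph1 and Bag3, induced by heat as well, were not called and lay lower, with differences of -0.70 and -0.79. Of 16 genes of glycolysis and hypoxia 7 were higher and 3 lower, with a median of 0.87. Of the 12 with a 3' end of their own, 3 were higher and 3 lower, with a median of 0.05. Ldha, lactate dehydrogenase, was at 1384, 1418, 1433 and 1366 CPM against 293 to 314 CPM, and Car9, a carbonic anhydrase induced by low oxygen, was lower, with a difference of -2.32.

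**Figure D4:**
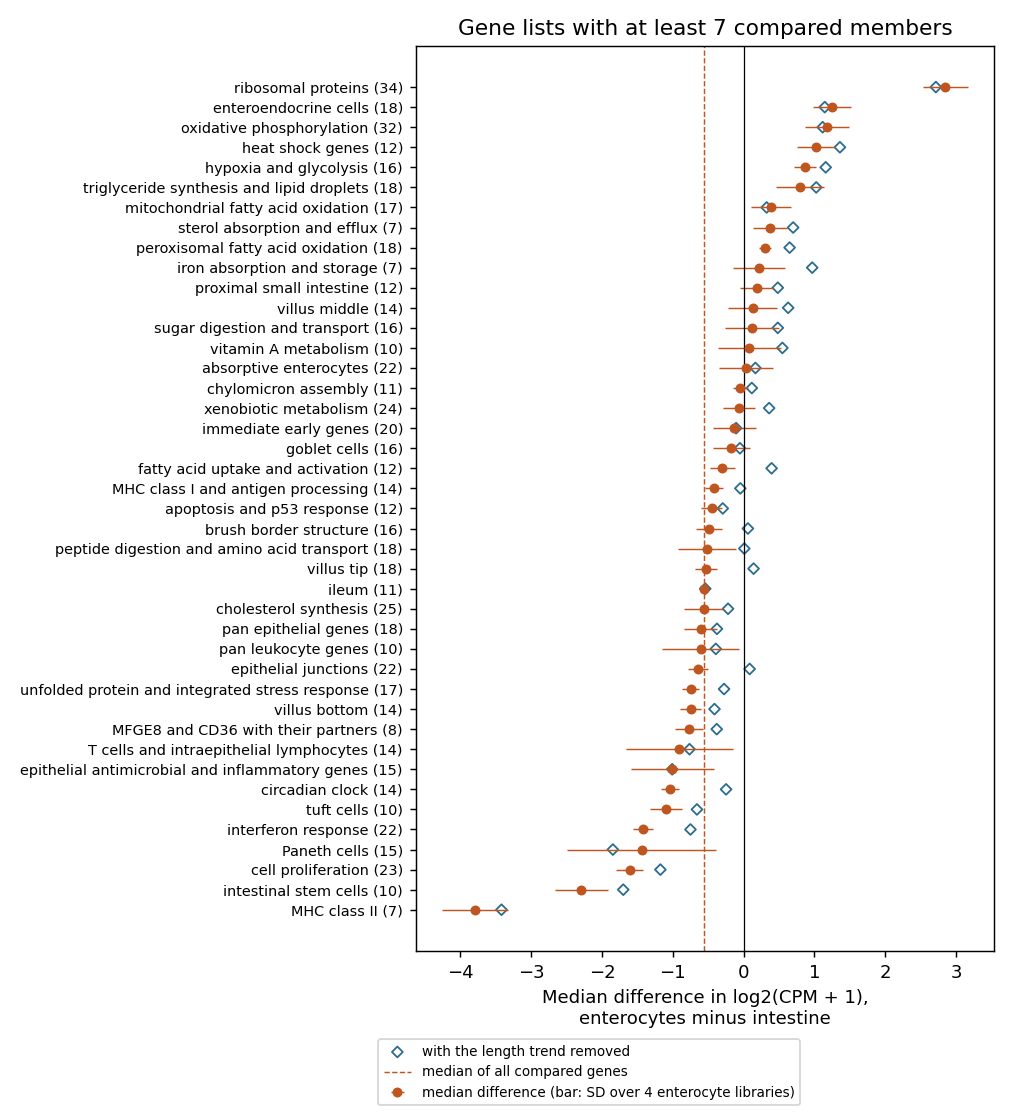
Median difference in log2(CPM + 1) of each list with at least 7 compared members (number in brackets). Bars show the SD, over the 4 enterocyte libraries, of the median relative to all genes. Diamonds show the median after the length trend was removed. The dashed line is the median of all compared genes, -0.57, from which ribosomal proteins lie farthest to the right and MHC class II genes farthest to the left.

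The difference varied with the length of the transcript. Among the 7247 compared genes with a 3' end of their own, the median was 0.30 for 241 genes with transcripts up to 1000 bases, -0.01 for 1121 genes of 1000 to 2000 bases, -0.46 for 2911 genes of 2000 to 4000 bases and -0.96 for 2974 longer genes. Over 20 length classes the median fell from 0.24 to -1.47. When the median difference of genes of like length was subtracted, 1365 genes were higher (15.5% of 8801 with a match to the annotation) and 1646 lower (18.7%). The same 7 class II genes and the same 13 proliferation genes were called lower with and without the length trend. Circadian clock genes, whose transcripts are long (median 4319.5 bases), went from 6 of 14 lower to 2 of 14. The labels describe the RNA as of high integrity without a value per library, and the part of RNA integrity in the length trend was not tested.

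**Figure D5:**
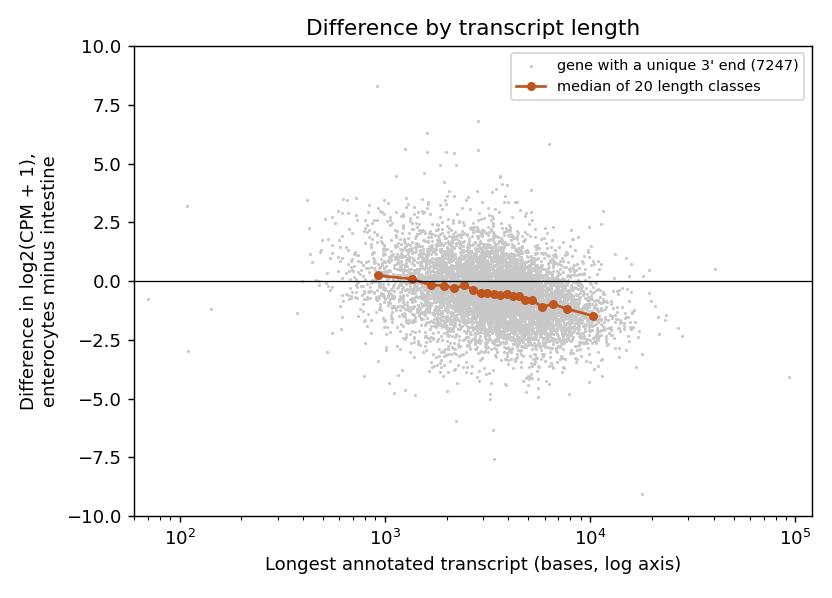
Difference in log2(CPM + 1), enterocytes minus intestine, against the length of the longest annotated transcript (log axis) for 7247 compared genes with a 3' end of their own. The line joins the medians of 20 length classes, which fall from 0.24 in the shortest to -1.47 in the longest.

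Shared and overlapped 3' ends marked many of the largest differences. Of 76 annotated genes with a difference of 4 or more, 51 shared 50-base words of their last 400 transcript bases with other genes and 18 were listed at 0 in all intestine libraries. Genes that shared 20 to 90% of those words had a median difference of 0.79, and 45.2% of these 208 genes were called higher. Of 83 genes with a difference of -4 or less, 39 had an end that another gene overlaps on the other strand. Where over 90% of the end was so overlapped (290 genes), the median was -1.05 and 50% were called lower. Gm10012, Nme2, Rpl11 and Rpl27 had the largest positive differences (9.61 to 7.90) among genes of at least 20 CPM in the higher sample type, of which Gm10012, Nme2 and Rpl27 shared 55.7%, 98.6% and 91.4% of their ends. Fam98c, Dgkq, Fam151a, Ppib and Sco2, among the 12 largest negative differences, were overlapped over their whole end, as was Cideb. Pla2g4c, a phospholipase, and Clca3b, a chloride channel regulator, were not, and stood at 2.47, 2.28, 1.22 and 2.28 and 0, 1.14, 1.22 and 2.85 CPM in enterocytes against 555 to 582 and 161 to 171 CPM in intestine. Their ends were unshared. Both were under 5 CPM in every enterocyte library, so the filter had fixed the direction in advance.

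Xist, the RNA that coats the inactive X chromosome, was listed at 0 in all 4 enterocyte libraries and stood at 524, 493, 550.4 and 562 CPM in intestine libraries 1 to 4. Ddx3y, a gene of the Y chromosome, was at 43.3, 47.4, 39.8 and 62.6 CPM in enterocytes and 45.2 to 54.1 CPM in intestine. The labels used here do not give the sex of the animals, and the part of sex in the other differences was not tested.

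Mfge8 and Cd36, the genes deleted in the other groups of the experiments, were detected in all 8 libraries. Mfge8, a secreted protein that bridges dying cells to phagocytes, was at 12.4, 6.28, 8.54 and 4.55 CPM in enterocyte libraries 1 to 4 and at 9.75, 11.6, 12.9 and 19.7 CPM in intestine libraries 1 to 4. Cd36, a membrane receptor for fatty acids, was at 75.4, 83.9, 72 and 60.9 CPM and 129, 129, 126 and 129.7 CPM. Neither was called, with differences of -0.73 and -0.82 beside a median of -0.57 over all genes. Cd36 did not overlap between the sample types, as was so for 65.4% of all compared genes.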

How the data were processed

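3' tag RNA-seq of 4 WT enterocyte and 4 WT intestine libraries was analysed, grouped by the labels. The submitters' processing notes name HISAT2 2.1.0 and the build mm10, Trimmomatic 0.38.1, HTSeq 0.91 and, as a further tool, DESeq2 2.11.40. The deposited signal values are gene counts that the authors divided by a size factor per library, in a table per experiment, and they gave back whole reads for 100% of values (tolerance 1e-06). Whether molecular identifiers were used in counting is not given in the sources used here, and the floor for genes at 0 allows for counting error alone.

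Each column was rescaled to CPM of its own sum. Levels were compared as log2(CPM + 1) for genes of at least 5 CPM in at least 4 of 8 libraries. A call needed a 2-fold difference and no overlap. Because the tables were normalised separately and the intestine libraries differed by about the sampling noise, the calls carry no p-value. The rule of no overlap still used each intestine library. Tests on the reads with edgeR 4.0.16, limma 3.58.1 and DESeq2 1.42.0 (R 4.3.3; the 4 enterocyte libraries against the summed or averaged intestine) were alternatives and were tested on simulated data. The lone intestine sample is there assumed to vary like the enterocytes, and, as the labels name no separate animals, those p-values speak of the variation among libraries, possibly technical. Transcript lengths and 3' ends (last 400 transcript bases, compared by words of 50 bases) came from GENCODE M21. The length trend is the median difference in 20 classes of transcript length among genes with a 3' end of their own.

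The members and gene lists were chosen with earlier results of these data known. Named genes were Mfge8 and Cd36; the 12 largest differences each way among called genes of at least 20 CPM; the 10 most abundant genes per sample type; per list, the 2 most abundant members, the 2 with the largest difference and those called against its median; and the 6 most variable genes of at least 50 CPM in enterocytes. Other genes were named after their values were seen. Libraries of the knockout groups were not used here. Some genes that these rules name are not reported here.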

Additional observations from a re-analysis of the deposited data

Results flagged for a closer look

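In 13 of 184 sets of 4 libraries that were looked at, the highest or lowest library lay far from the rest by Dixon's test. Chance flags about 1 in 20 of sets chosen without regard to their values. Here some genes were chosen for their spread among enterocyte libraries and others after their values were seen. The count therefore cannot be compared with that rate. Enterocyte library 3 was low in the summed antimicrobial and inflammatory genes, at 5985 CPM. Enterocyte library 4 was high in Fabp6 (5137 CPM), Nos2 (93.4 CPM), Ccl20 (59.2 CPM) and Duox2 (6.26 CPM). A few sets rested on a handful of reads: Cideb was at 2.28 CPM and Dcn at 1.14 CPM in enterocyte library 2, Pla2g4c at 1.22 CPM in enterocyte library 3, C1qa at 1.08 CPM in intestine library 1 and Tyrobp at 3.53 CPM in intestine library 3. In the intestine, where libraries differed by about the sampling noise, Anpep was at 2344 CPM in library 4, Fabp6 at 298 CPM in library 3 and Hadh at 727 CPM in library 2. The cause was not tested for any of them.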

How the results depend on the processing

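Counts of higher and lower genes (1114 and 3100) depended on the scaling. They were 1897 and 1864 with TMM factors, 1891 and 1878 with median-ratio size factors, 1963 and 1751 per pan-epithelial transcript, and 2978 and 1089 for deposited values without rescaling. A 4-fold limit gave 396 and 1132. The tests on recovered reads gave 2028 and 1960 (edgeR) and 1932 and 1337 (DESeq2) at an adjusted p of 0.05, and limma 1267 and 2733. With the length trend removed 1646 genes were lower. Leaving out a library gave 1113 to 1170 higher and 3064 to 3308 lower genes.

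Of the 10 lists followed under every setting, the median relative to all genes turned sign only for Paneth cell genes, at 0.53 among unique 3' ends and -1.53 to -0.51 with a library left out. Enteroendocrine genes (1.81) were at 1.52 with a pseudocount of 5, 1.49 without a filter and 1.14 with the length trend removed. Stem cell genes (-1.73) were at -1.08, -1.01 and -0.71 with a pseudocount of 5, no filter and a filter at 20 CPM. Proliferation genes (-1.04) were at -0.60, -1.25 and -2.10 under these settings and -0.83 among unique ends, and interferon genes (-0.85) at -0.62, -1.04, -1.07 and -1.01. With the length trend removed, goblet genes went from 0.39 to -0.06, MHC class I from 0.15 to -0.05, and ileal genes from 0.01 to -0.55. Heat shock genes were at 1.27 with the filter at 20 CPM. Ribosomal genes were at 2.85 with a pseudocount of 5, 2.41 among unique ends and 2.71 with the length trend removed, where oxidative phosphorylation was at 1.11. With a library left out, MHC class II ranged from -3.42 to -2.95, enteroendocrine from 1.68 to 1.91, stem cell from -1.82 to -1.58, proliferation from -1.20 to -0.86, antimicrobial from -0.85 to -0.34, interferon from -0.94 to -0.78, heat shock from 1.49 to 1.69, ribosomal from 3.27 to 3.51 and oxidative phosphorylation from 1.56 to 1.85. The cause of these shifts was not tested.

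Of 257 single genes followed, 21 were no longer called and 13 became called with TMM factors, and 81 were not called at 4-fold. Among called genes, differences turned sign for Apoa1 (0.0207) and Pigr (0.0505) without rescaling and for Neat1 (0.41) with the length trend removed. Unique-end and length settings were chosen after seeing the data. No paired analysis was possible because the replicate numbers of the sample types come from different experiments and the calls come from no test. In intestine 1 read is 1.08 to 1.18 CPM, so genes of a few CPM rest on a few reads.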
